A study of Mus musculus with 12 samples.

Results

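The genes that build cholesterol and fatty acids were followed in mouse embryonic stem (ES) cells that lack one or both of the histone H4 lysine methyltransferases SUV420H2 and SUV420H1, and in cells differentiated from them. A list of 38 symbols was drawn up by pathway membership, and 37 of them were among the 22878 gene symbols of the deposited tables. The remaining symbol, Msmo1, is the newer name of Sc4mol, under which that gene was found. Where a symbol had several transcript models, its longest model was used. The 37 genes fall into 18 enzymes of the mevalonate and sterol pathway, 5 sterol sensors and regulators, 9 fatty acid enzymes, and 5 genes of sterol transport and efflux with their LXR receptors.

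Cholesterol is made from acetyl-CoA through mevalonate, isoprenoids, squalene and lanosterol, and the same acetyl-CoA feeds the synthesis of fatty acids. The transcription factors SREBP-1 and SREBP-2 (genes Srebf1 and Srebf2) switch on most genes of both routes when sterols in the endoplasmic reticulum are low: the escort protein SCAP then carries them to the Golgi for cleavage, and INSIG proteins hold the complex back when sterols are plentiful. The LXR nuclear receptors, bound by oxidised sterols, switch on the exporters Abca1 and Abcg1.

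The 12 libraries of polyadenylated RNA came from 3 genotypes: wild type (WT), cells without SUV420H2 (KO) and cells without SUV420H1 and SUV420H2 (DKO). Each genotype had 2 ES libraries and 1 library at each of day 8 and day 12 of differentiation. ES cells were grown on gelatin, after the feeder cells had been removed over several passages, with 1.5 µM of a GSK3 inhibitor that the labels spell CHIR9901. The labels list this 1.5 µM for all 12 libraries, those of day 8 and day 12 included. The differentiation protocol, the number of clones behind each genotype and whether the 2 ES libraries of a genotype were separate cultures are not given in the sources used here, so p-values measure the spread between these libraries, which may be technical.

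Reads in genes ranged from 22538336 to 26675600 per library. Levels below are RPKM (reads per kilobase of transcript, scaled to library size) on a scale shared by the 12 libraries, and changes are log2 fold changes ± standard error from edgeR's quasi-likelihood test, with p-values adjusted by Benjamini-Hochberg over all genes tested; a gene was called changed at an adjusted p under 0.05. As a check of the labels, Suv420h2 was at 54.6 and 49.5 RPKM in WT ES cells, 8.6 and 7.79 in KO and 10.4 and 6.66 in DKO. Suv420h1 was not lower in the DKO libraries, at 9.87 and 11.4 RPKM against 7.23 and 8.03 in WT (0.49 ± 0.13, adjusted p = 0.0057); the deleted exons were not given in the sources used here, so its total reads do not check that label. The 6 ES markers summed to 4482 and 4414 RPKM in WT ES cells, 3281 and 3671 in KO and 3421 and 3019 in DKO. Single ES markers moved in opposite directions within these sums: Zfp42 stood at 10% of the WT mean in KO and 12% in DKO, Nanog at 274% and 47.8%, Klf4 at 75.2% and 216%, and Esrrb at 79.8% and 170%. Of the neural markers, Sox1 stood at 2060% of the WT mean in DKO (5.44 and 5.6 RPKM in WT, 119.8 and 107.8 in DKO), with Tubb3 at 42.8%, Nes at 56.4% and Pax6 at 17.4%; the part of these differences between ES states in the results was not tested. Markers of fibroblasts, the usual feeder cells, summed to between 1.43 and 13.9 in the 6 ES libraries, with Lum and Dcn at 0 in WT and KO. The libraries of a pair differed most in DKO, whose counts gave a chi-square over genes of 36.0 per degree of freedom, against 14.9 in KO and 3.93 in WT. Whole chromosomes were shifted in ES cells. The median log2 fold change against WT of tested genes in KO was 0.91 on chromosome X, −0.57 on chromosome 1 and −0.53 on chromosome 14. Fdft1 lies on chromosome 14. In DKO the median was −0.40 on chromosome 11. Those of chromosomes X, 1 and 11 are given again beside some genes that lie there, in the comparisons of ES cells. Among differentiated cells the medians against WT on X, 1 and 11 were 0.51, −0.53 and 0.23 in KO. In DKO they were −0.16, 0.08 and −0.21. The part of all these medians in the results was not tested.

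Upstream sequences are shown for 6 genes with some of the largest changes in DKO ES cells, so that the letters bound by known regulators of this pathway can be seen. RefSeq start sites (GRCm38.p6) gave a window of 250 bases before the start for 29 of the 37 genes; there was none for Fdps, Fdft1, Sqle, Scd1, Scd2, Fads1, Stard4 and Abcg1. The 3 motifs below were searched on both strands: TCACNCCA, a form of the sterol regulatory element bound by SREBPs; CCAAT, bound by the factor NF-Y that acts beside SREBPs; and GGGCGG, the GC box. Each sequence is written 5′ to 3′ on the gene's own strand, ending at the base before the start, and capitals mark CCAAT, its reverse complement ATTGG, or TCACNCCA. Dhcr7 (chr7:143822917-143823166, plus strand) and Acly (chr11:100528001-100528250, minus strand) fell the most in DKO and held neither motif in capitals:
Dhcr7: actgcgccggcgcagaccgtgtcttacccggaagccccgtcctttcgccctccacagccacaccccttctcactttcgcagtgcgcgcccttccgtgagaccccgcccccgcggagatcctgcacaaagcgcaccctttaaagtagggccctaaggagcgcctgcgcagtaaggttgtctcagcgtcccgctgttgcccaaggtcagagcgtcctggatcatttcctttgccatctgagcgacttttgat
Acly: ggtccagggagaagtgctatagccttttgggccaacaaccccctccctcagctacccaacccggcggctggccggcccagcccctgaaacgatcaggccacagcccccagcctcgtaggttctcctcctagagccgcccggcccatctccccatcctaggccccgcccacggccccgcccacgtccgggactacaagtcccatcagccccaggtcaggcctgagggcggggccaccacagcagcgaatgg
Idi1 (chr13:8885356-8885605, plus strand), Fasn (chr11:120824548-120824797, minus strand) and Tm7sf2 (chr19:6067851-6068100, minus strand) also fell and held CCAAT, in Fasn with a CCAAT and an ATTGG that overlap:
Idi1: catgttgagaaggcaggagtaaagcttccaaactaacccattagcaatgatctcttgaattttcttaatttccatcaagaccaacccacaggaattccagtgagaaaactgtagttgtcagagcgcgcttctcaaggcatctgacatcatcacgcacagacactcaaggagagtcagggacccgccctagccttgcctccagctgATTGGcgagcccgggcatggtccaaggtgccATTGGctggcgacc
Fasn: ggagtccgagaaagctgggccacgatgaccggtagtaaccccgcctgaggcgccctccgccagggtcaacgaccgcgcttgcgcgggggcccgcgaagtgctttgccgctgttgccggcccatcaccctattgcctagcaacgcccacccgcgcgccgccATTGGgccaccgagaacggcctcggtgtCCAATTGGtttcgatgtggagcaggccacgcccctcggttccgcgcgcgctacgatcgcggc
Tm7sf2: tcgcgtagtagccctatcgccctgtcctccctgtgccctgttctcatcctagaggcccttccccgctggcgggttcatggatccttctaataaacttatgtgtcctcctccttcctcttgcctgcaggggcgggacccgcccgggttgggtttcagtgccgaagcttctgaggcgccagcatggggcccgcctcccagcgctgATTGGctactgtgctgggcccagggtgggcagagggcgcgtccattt
Abca1 (chr4:53159896-53160145, minus strand), the sterol exporter, rose and held neither:
Abca1: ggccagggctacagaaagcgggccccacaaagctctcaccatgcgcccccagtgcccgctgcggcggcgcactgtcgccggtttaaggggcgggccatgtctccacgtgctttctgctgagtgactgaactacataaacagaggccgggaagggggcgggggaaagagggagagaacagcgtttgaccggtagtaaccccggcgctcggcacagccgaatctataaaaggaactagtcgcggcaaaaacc

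CCAAT was found in 19 of the 29 windows (65.5%), against 34.5% of all 27025 RefSeq windows and 37.2% of the 8376 windows of genes tested here. The genes with CCAAT included most of the sterol pathway (Mvk, Mvd, Idi1, Lss and Cyp51 among them) and 4 of the regulators, Srebf1, Srebf2, Insig1 and Insig2. TCACNCCA was in 3 windows (10.3%), those of Hmgcs1, Sc4mol and Srebf2, against 3.59% of all windows and 3.16% of those of tested genes. GGGCGG was in 20 windows (69%), against 33% of all windows but 61.9% of those of tested genes. Genes with and without CCAAT both fell in DKO ES cells: of 18 tested genes with it, 14 fell, 1 rose and 3 were not called, with a median log2 fold change of −0.82, and of 9 tested genes without it, 5 fell, 2 rose and 2 were not called, with a median of −1.23. Of all 12044 genes tested in this comparison, 31.7% fell and 32.2% rose, with a median of −0.01. A match is a string of letters and not a measured binding site.

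The pathway was lower in DKO than in WT ES cells along nearly its whole length. Of 35 genes tested, 26 fell and 3 rose, so that 82.9% were called, where 63.9% of all 12044 genes tested were called, 31.7% as lower and 32.2% as higher. The median log2 fold change of the 35 genes was −0.81, and that of all genes was −0.01. Both DKO libraries lay below both WT libraries for 29 of the 35 genes and above them for 5, while 42.1% of all genes lay below in this way and 40.3% above. In bulk RNA, fewer cells of a type and less RNA per cell cannot be told apart. Hmgcs1 and Nr1h3 did not pass the filter of at least 1 RPKM in at least 2 ES libraries. Abca1, 1 of the 3 genes that rose, passed it only through the 2 DKO libraries, so its rise is no test. Abcg1 and Acss2, counted among the 26 that fell, passed it only through WT and KO libraries, so their falls are no test. Hmgcs1 had no read in any of the 12 libraries; the last column of its row, whose meaning the headers do not give, was 2, and 43.2% of the 493 models with a value above 1 there had no read, against 11% of the 28764 models with 1, so its zero cannot be read as absent expression.

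**Figure D1:**
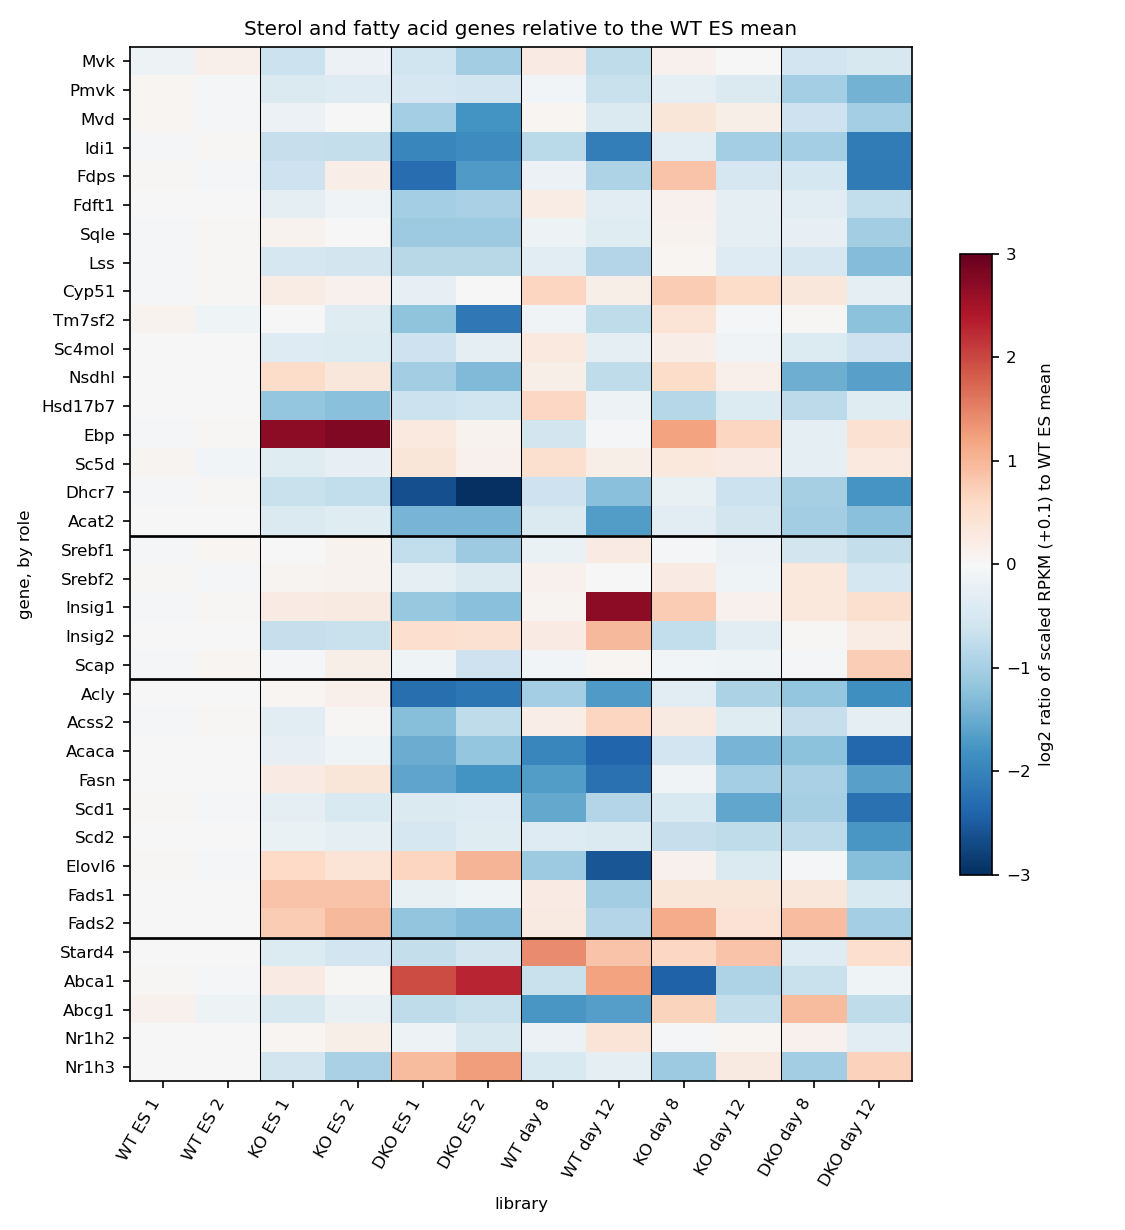
Level of each gene (rows, in order of role) in each of the 12 libraries (columns), as the log2 ratio of its RPKM plus 0.1 to the WT ES mean; red is above and blue below that mean, and black lines part the roles and groups. Most rows are blue in both DKO ES columns, Ebp is red in both KO ES columns, and Insig1 stands out in the WT day 12 library, at 362.9 RPKM. Hmgcs1, with no read, is left out.

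Among the mevalonate and sterol enzymes, 14 of 17 tested fell in DKO ES cells (82.4%) and none rose, with a median of −1.0. Of all genes, 31.7% were called lower and 32.2% higher. Dhcr7, which catalyses the last step to cholesterol, had the largest fall: it was at 42.9 and 45.4 RPKM in WT, 27.8 and 26.4 in KO and 7.03 and 5.5 in DKO. DKO stood at 14.2% of the WT mean (log2 fold change −2.81 ± 0.14, adjusted p = 1.7e-08), and the 3 genotypes did not overlap. Idi1, the isopentenyl diphosphate isomerase, followed the same order, with 34.4 and 35.6 RPKM in WT, 21.7 and 21.2 in KO and 8.98 and 9.33 in DKO (−1.93 ± 0.12, adjusted p = 7.5e-08 for DKO). Fdps, which makes farnesyl diphosphate, was at 10.6 and 10.2 RPKM in WT, 6.74 and 12 in KO and 2.05 and 3.13 in DKO. Only the DKO libraries stood clear of WT for this gene (−1.99 ± 0.28, adjusted p = 6.3e-05), since the 2 KO libraries lay on either side of WT.

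Tm7sf2, a sterol reductase, was a gene of low level, at 6.43 and 5.48 RPKM in WT, 6.01 and 4.59 in KO and 2.51 and 1.27 in DKO (−1.65 ± 0.31, adjusted p = 5.1e-04). Acat2, the cytosolic acetoacetyl-CoA thiolase, stood at 58.7 and 58.4 RPKM in WT, 43.6 and 45.7 in KO and 22.3 and 22.2 in DKO (−1.39 ± 0.11, adjusted p = 6.2e-07). It has a near-identical neighbour, Acat3, and rules for splitting reads between them were not given in the sources used here. Mvd, the mevalonate diphosphate decarboxylase, whose longest model is a non-coding one, was at 42.9 and 40.1 RPKM in WT, 37 and 40.9 in KO and 20.4 and 11.9 in DKO (−1.36 ± 0.20, adjusted p = 7.6e-05). The 2 DKO libraries differed from each other here but both lay below all others of the ES state. The squalene steps fell as well, with Fdft1, the squalene synthase, at −1.0 ± 0.13 and Sqle, the squalene epoxidase, at −1.08 ± 0.11, and so did Lss, the lanosterol synthase, at −0.83 ± 0.12. The remaining falls were of Nsdhl (−1.19), Mvk (−0.81), Hsd17b7 (−0.62), Pmvk (−0.53) and Sc4mol (−0.45), which act on mevalonate or on the sterol rings. The 3 enzymes not called, Cyp51, Ebp and Sc5d, had log2 fold changes of −0.12, 0.21 and 0.26 with adjusted p of 0.42, 0.17 and 0.12.

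Of the 5 regulators, 3 fell in DKO ES cells and 1 rose (80% called, against 63.9% of all genes). Insig1 was at 54.9 and 58 RPKM in WT, 67 and 68.3 in KO and 25.7 and 23.6 in DKO, a fall of −1.19 ± 0.11 in DKO (adjusted p = 2.1e-06). Insig2, its relative, moved the other way, from 17.2 and 17 RPKM in WT to 24.4 and 23.4 in DKO (0.49 ± 0.12, adjusted p = 0.0037), and was lower in KO, at 10.6 and 10.8. Without 1 of the WT ES libraries the rise of Insig2 in DKO was not called (0.48, adjusted p = 0.054). Srebf1 was at 43.6 and 47.3 RPKM in WT, 45.8 and 49.2 in KO and 27.4 and 21.3 in DKO (−0.89 ± 0.13, adjusted p = 8.9e-05). Srebf2 had a smaller fall, from 102.8 and 98.2 RPKM in WT, with 106.8 and 109.0 in KO, to 83.8 and 74.8 in DKO (−0.33 ± 0.11, adjusted p = 0.017). That call was lost in 3 of the fits without 1 library, with adjusted p up to 0.18. Scap, at 14.3 and 15.6 RPKM in WT, 14.7 and 16.9 in KO and 13.7 and 9.63 in DKO, was not called (−0.35 ± 0.16, adjusted p = 0.073). Scap and Srebf2 thus had falls of like size in DKO, at 78% and 78.9% of the WT mean, and only that of Srebf2 was called.

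Of the 9 fatty acid enzymes, 7 fell in DKO ES cells and 1 rose (88.9% called, against 63.9% of all genes), with a median of −1.05. Acly, which makes cytosolic acetyl-CoA from citrate, was at 117.2 and 116.6 RPKM in WT, 121.0 and 130.8 in KO and 24.4 and 26 in DKO (−2.21 ± 0.11, adjusted p = 1.6e-08). Fasn, the fatty acid synthase, was at 176.1 and 178.1 RPKM in WT, 211.6 and 227.6 in KO and 58.7 and 51.3 in DKO (−1.68 ± 0.11, adjusted p = 1.4e-07). Acaca, the acetyl-CoA carboxylase, was at 13 and 12.6 RPKM in WT, 10.7 and 11.7 in KO and 4.48 and 5.63 in DKO (−1.33 ± 0.13, adjusted p = 3.1e-06). The 3 consecutive steps from citrate to palmitate were thus at 21.5%, 39.5% and 31% of the WT mean for Acly, Acaca and Fasn. These 3 genes and Srebf1 lie on chromosome 11, whose 1040 tested genes had a median of −0.40 in DKO, and the part of that shift in these results was not tested. Acss2, which makes acetyl-CoA from acetate, fell by 1.05 on the log2 scale. On the deposited RPKM it passed the filter only through WT and KO libraries, so its fall, 1 of the 7 counted, is no test.

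The desaturases and the elongase did not move alike. Fads2, the delta-6 desaturase of polyunsaturated fatty acids, was at 28.1 and 28.1 RPKM in WT, rose to 47.7 and 55.2 in KO and fell to 12.4 and 11.4 in DKO (−1.23 ± 0.13, adjusted p = 6.7e-06). Fads1, the delta-5 desaturase that lies beside it in the genome, was at 34 and 34.2 RPKM in WT, 61.3 and 61.6 in KO and 29 and 31.1 in DKO, and was not called in DKO (−0.18 ± 0.11, adjusted p = 0.17). Scd1 and Scd2, the stearoyl-CoA desaturases, had small falls in DKO of −0.41 and −0.43; as close relatives they may share reads. Elovl6, which elongates palmitate, rose from 45.1 and 43.5 RPKM in WT to 67.2 and 59.1 in KO and 69.2 and 89.2 in DKO (0.84 ± 0.13, adjusted p = 1.4e-04 in DKO).

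Of the transport and efflux genes, Abca1 rose and Stard4 and Abcg1 fell in DKO ES cells, and Nr1h2 (LXRβ) was not called (−0.30, adjusted p = 0.062). Abca1 was at 1.56 and 1.46 RPKM in WT, 1.82 and 1.55 in KO and 6.17 and 7.71 in DKO. In DKO it stood at 459% of the WT mean (2.21 ± 0.16). On the deposited RPKM it passed the filter only through the 2 DKO libraries, so its high value there had to differ and no test is given. Abcg1, the related exporter, was at 3.42 and 2.78 RPKM in WT, 2.21 and 2.65 in KO and 1.79 and 1.9 in DKO (−0.74 ± 0.18), opposite in direction to Abca1. On the deposited RPKM Abcg1 passed the filter only through WT and KO libraries, where it was higher, so no test of its fall is given. Stard4, which carries sterols within the cell, fell by 0.63 ± 0.14 on the log2 scale. Nr1h3 (LXRα), below the filter, had 38 and 38 reads in WT, 24 and 16 in KO and 71 and 97 in DKO.

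**Figure D2:**
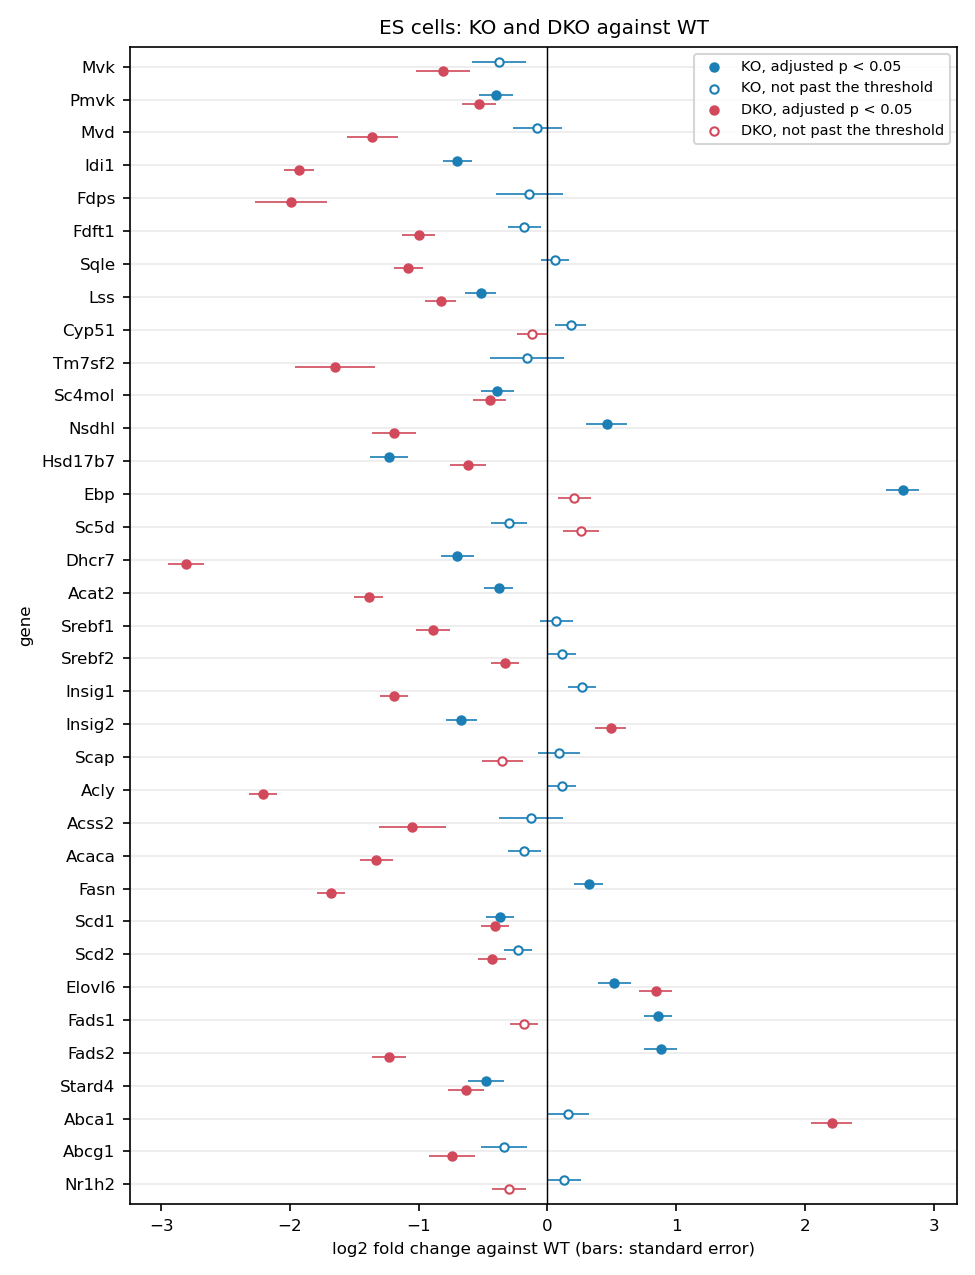
Log2 fold change against WT ES cells (horizontal axis; bars, standard error) of the 35 tested genes in KO (blue) and DKO (red); filled points passed an adjusted p of 0.05. Most red points lie left of 0, and the largest shift to the right is that of Ebp in KO, at 2.76.

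In KO against WT ES cells, the genes did not move in 1 direction. Of 35 tested, 6 rose and 10 fell (45.7% called), where 42.7% of all genes were called, 23.5% as higher and 19.2% as lower; the share of these genes called was therefore near that of all genes. The median was −0.14, against −0.01 over all genes. Both KO libraries lay below both WT libraries for 16 genes and above them for 11, against 38.8% and 37.8% of all genes. By role, 7 sterol enzymes fell and 2 rose of 17, 1 regulator fell, 4 fatty acid enzymes rose and 1 fell of 9, and 1 transport gene fell. The call of 9 of these 16 genes depended on single libraries or settings: leaving out an ES library of WT or KO left 7 to 10 genes called.

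Ebp, the sterol isomerase that moves the ring double bond, had the largest change in KO, from 12.5 and 13 RPKM in WT to 83 and 88.5 in KO, with 15.6 and 13.7 in DKO (2.76 ± 0.13, adjusted p = 2.5e-08). KO stood at 674% of the WT mean and apart from both other genotypes. Ebp lies on chromosome X, whose 433 tested genes had a median of 0.91 in KO, and so does Nsdhl, a sterol dehydrogenase that rose by 0.46 ± 0.16; the part of that shift in these results was not tested. Hsd17b7, a sterol ketoreductase, fell from 6.61 and 6.61 RPKM in WT to 2.88 and 2.72 in KO, with 4.22 and 4.35 in DKO (−1.23 ± 0.15, adjusted p = 3.6e-05). It lies on chromosome 1 together with Insig2 (−0.67 ± 0.12), where the median of the 647 tested genes was −0.57, which is of the size of the change of Insig2. Dhcr7 and Idi1 each fell by 0.70 in KO. Fads1 (0.86 ± 0.11) and Fads2 (0.88 ± 0.13) rose together, as did Elovl6 (0.52) and, by less, Fasn (0.32). Ebp, Hsd17b7, Insig2, Dhcr7, Idi1, Fads1 and Fads2 were the 7 genes called in every one of the 13 alternative settings.

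DKO and KO ES cells were also compared directly. Of the 35 genes, 23 were lower and 5 higher in DKO than in KO (80% called), where 67.3% of all genes were called, 34.1% as lower and 33.3% as higher; the median was −0.82, against −0.02. The DKO libraries lay below both KO libraries for 26 genes and above them for 5 (41.6% and 39.9% of all genes). Both comparisons with DKO share its libraries, so that their likeness is no independent support. Abca1, 1 of the 5 higher genes, passed the filter only through the DKO libraries, so its difference is no test. The same holds for Acss2, counted among the 23 lower genes, which passed it only through WT and KO libraries. Ebp had the largest difference (−2.55 ± 0.13, adjusted p = 1.0e-08), followed by Acly (−2.32 ± 0.11), Dhcr7 (−2.11 ± 0.14), Fads2 (−2.11 ± 0.14) and Fasn (−2.0 ± 0.11). Nsdhl was at 15.4 and 13.2 RPKM in KO, 10.4 and 10.5 in WT and 5.03 and 4.08 in DKO, so that the 3 genotypes stood apart (−1.65 ± 0.17, adjusted p = 3.0e-06 for DKO against KO). The 5 genes higher in DKO were Abca1 (2.04), Insig2 (1.16), Hsd17b7 (0.61), Sc5d (0.56) and Elovl6 (0.32). Elovl6 was not called in 7 of 13 alternative settings (0.17 without DKO replicate 2 and 0.20 without KO replicate 2). Of the 23 lower genes, Lss was not called in 12 of the 13 settings and Cyp51 in 11. The medians of chromosomes X and 1, −0.93 and 0.72 in this comparison, had the same sign as the differences of Ebp and Nsdhl and of Insig2 and Hsd17b7, and that of chromosome 11, −0.56, the same sign as those of Acly and Fasn; their part was not tested.

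Genes that surround the pathway were counted from 4 further lists. Of 12 other genes of sterol synthesis and sensing, 3 fell and 2 rose in DKO ES cells (41.7% called, against 63.9% of all genes). Lbr, a sterol reductase that is also the lamin B receptor, was at 98.4 and 94.6 RPKM in WT, 68.2 and 63 in KO and 64 and 75.1 in DKO (−0.47 ± 0.12, adjusted p = 0.0038 for DKO), so that both mutants lay below WT; it lies on chromosome 1, with a median of −0.57 in KO and 0.12 in DKO. Of 13 genes of uptake, transport and esterification, 4 fell and 4 rose in DKO (61.5% called), a share near that of all genes. The 4 that rose include Vldlr and the 4 that fell include Lipa, both described below, whose changes are no test. The lysosomal lipase Lipa was at 4.63 and 3.65 RPKM in WT, 3.14 and 2.62 in KO and 0.392 and 0.426 in DKO (−3.33 ± 0.27). Lipa passed the filter only through WT and KO libraries, where it was higher, so no test of its fall is given. Tmem97, the sigma-2 receptor of the endoplasmic reticulum, was at 75.3 and 83.9 RPKM in WT, 97.9 and 102.1 in KO and 19.5 and 20.6 in DKO (−1.98 ± 0.12, adjusted p = 6.4e-08), and lies on chromosome 11, with a median of −0.40 in DKO. Vldlr, a lipoprotein receptor, was at 0.555 and 0.461 RPKM in WT, 0.572 and 0.377 in KO and 4.87 and 5.68 in DKO; it passed the filter only through the 2 DKO libraries, so its high value there had to differ and no test is given. For Tmem97 both DKO libraries lay below those of both other genotypes. Of all genes, 42.1% did so against WT and 41.6% against KO.

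Of 14 tested genes of fatty acid supply, elongation and activation, 7 fell and 2 rose in DKO (64.3% called, and 50% as lower against 31.7% of all genes). The citrate carrier Slc25a1, which supplies the substrate of ACLY, fell from 54.7 and 53.8 RPKM to 28.8 and 23.5, and the acyl-CoA synthetase gene Acsl1 fell by 1.64 ± 0.16. The elongase Elovl7 was at 1.89 and 1.63 RPKM in WT, 1.79 and 0.977 in KO and 8.79 and 11 in DKO. It passed the filter on the deposited RPKM only through the 2 DKO libraries, as Vldlr did. Its rise, 1 of the 2 counted, is therefore no test. Of 8 tested genes of fatty acid oxidation, 5 rose and 1 fell (75% called, against 63.9% of all genes, 32.2% as higher), and their difference from the synthesis genes was not tested. Cpt1a, which admits fatty acids to mitochondria, rose from 15.9 and 15 RPKM to 42.9 and 46.4 (1.53 ± 0.12, adjusted p = 5.8e-07), Hadha of the mitochondrial trifunctional protein rose by 0.96 ± 0.12, and Acadm, a medium-chain dehydrogenase, fell by 1.22 ± 0.13. In KO the same 4 lists, in this order, had 2 genes higher and 3 lower of 12 (41.7% called), 5 and 1 of 13 (46.2%), 4 and 0 of 14 (28.6%), and 2 and 2 of 8 (50%), against 42.7% of all genes. Lipa, Vldlr and Cpt1a were not called in KO.

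During differentiation of WT cells, the genes for all 3 steps from citrate to palmitate, Acly, Acaca and Fasn, fell. Within WT, day 8 and day 12 together against the ES libraries, 10 of 35 genes fell and 4 rose (40% called), where 61.1% of all 13429 genes tested were called, 29.8% as lower and 31.2% as higher, and the median was −0.28, against 0.02. The share of these genes called was below that of all genes. Of the 9 fatty acid enzymes, 5 fell and none rose, and 4 of the 17 sterol enzymes fell and 1 rose. Acaca was at 3.21 RPKM at day 8 and 2.37 at day 12, against 13 and 12.6 in ES cells (−2.20 ± 0.20, adjusted p = 7.1e-05). Fasn went from 176.1 and 178.1 to 55.3 and then 37.3 RPKM (−1.96 ± 0.14, adjusted p = 3.2e-05), and Elovl6 from 45.1 and 43.5 to 20.8 and 7.34 (−1.83 ± 0.23, adjusted p = 3.1e-04). All 3 were lower at day 12 than at day 8, with 1 library at each day. Acly, at 57.5 and 36.2 RPKM (−1.36 ± 0.11), and Scd1, at 26.2 and 41.6 against 78.5 and 73.8 in ES cells (−1.08 ± 0.39), completed the falls among the fatty acid enzymes.

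Idi1 fell to 20.1 and 8.23 RPKM (−1.43 ± 0.17, adjusted p = 2.0e-04), Acat2 to 43.5 and 18.2 (−1.01 ± 0.24) and Dhcr7 to 28.7 and 18.4 (−0.94 ± 0.16), with a smaller fall of Lss (−0.61 ± 0.14). The exporter Abcg1 fell to 0.85 and 0.926 RPKM (−1.70 ± 0.42, adjusted p = 0.0075). Stard4 rose to 37.7 and 25.6 RPKM from 14.1 and 14.1 (1.19 ± 0.29, adjusted p = 0.0079), and Insig2 (0.62) and Cyp51 (0.42) rose by less. Insig1 rose in the fit (1.69 ± 0.61, adjusted p = 0.04), but this rested on 1 library: it was at 59.7 RPKM at day 8 and 362.9 at day 12, and without the WT day 12 library the change was −0.02 (adjusted p = 0.95). In the other 11 libraries Insig1 lay between 23.6 and 95.7 RPKM.

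Cell type markers differed between the differentiated libraries of the genotypes. ES markers summed to 296 and 318 RPKM in WT at day 8 and day 12, to 1678 and 788 in KO and to 2848 and 1610.1 in DKO. Markers of visceral endoderm, a lipid-handling cell type, summed to at most 10.6 RPKM in any ES library, and to 330.0 and 567 in WT, 12 and 637 in KO and 56.2 and 529.6 in DKO. Fibroblast markers summed to 813 and 538 RPKM in WT, 19.1 and 209 in KO and 8.67 and 2.24 in DKO, and erythroid markers reached 6507 RPKM in WT at day 8, 490.3 in KO at day 12 and 3.42 in DKO. Neural markers (4 of 5 in the tables) summed to between 26.2 and 103 RPKM in the differentiated libraries and between 169 and 292 in ES cells, with Sox1 at 25.4 and 25.8 in DKO against at most 1.45 in WT and KO, and cardiac markers to at most 21.3. The part of these differences in the results for differentiated cells was not tested.

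Within KO, 5 genes fell and 2 rose of 35 (20% called), where 29.3% of all genes were called, 13.5% as lower and 15.8% as higher. Abca1 fell from 1.82 and 1.55 RPKM to 0.201 at day 8 and 0.749 at day 12 (−2.08 ± 0.34, adjusted p = 0.0044), and Ebp from 83 and 88.5 to 29.5 and 20 (−1.77 ± 0.28, adjusted p = 0.004). Even so, both differentiated KO libraries had more Ebp than any WT library, whose highest value was 13 RPKM. Fasn (163.8 and 86.8 RPKM), Acaca (8.56 and 4.83) and Acly (94.5 and 60.9) had log2 fold changes of −0.88, −0.80 and −0.73, and Stard4 rose to 21.6 and 25.5 RPKM (1.23 ± 0.29). Cyp51 rose by 0.49. Leaving out an ES library of KO left 4 genes called, and leaving out a differentiated WT library, which enters the shared estimate of spread and of the day effect, gave up to 14.

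Within DKO, 4 genes rose and 4 fell of 35 (22.9% called), where 19.7% of all genes were called, 10.4% as higher and 9.24% as lower. Genes that were low in DKO ES cells were among those that rose. The same DKO ES libraries enter both results, so these are not independent. Dhcr7 went from 7.03 and 5.5 RPKM to 22.2 at day 8 and 12.9 at day 12 (1.44 ± 0.16, adjusted p = 0.0019), and Acly from 24.4 and 26 to 52 and 32.8 (0.71 ± 0.11, adjusted p = 0.0057). Fads2 went from 12.4 and 11.4 to 53.9 and 13.8 (1.24 ± 0.27, adjusted p = 0.017), so that its rise was almost all in the day 8 library. Fdft1 rose by 0.48 and was not called in 9 of 17 alternative settings. Abca1 fell from 6.17 and 7.71 RPKM to 0.914 and 1.38 (−2.57 ± 0.34), below both WT ES libraries. It is 1 of the 4 falls, but passed the filter through the DKO ES libraries, where it was high, so no test is given. Elovl6 fell from 69.2 and 89.2 to 43 and 18.1 (−1.50 ± 0.23, adjusted p = 0.005), and Scd2 and Pmvk fell by 0.80 and 0.68. Without 1 of the DKO ES libraries 4 or 5 genes were called, and without 1 of the differentiated WT libraries 16.

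**Figure D3:**
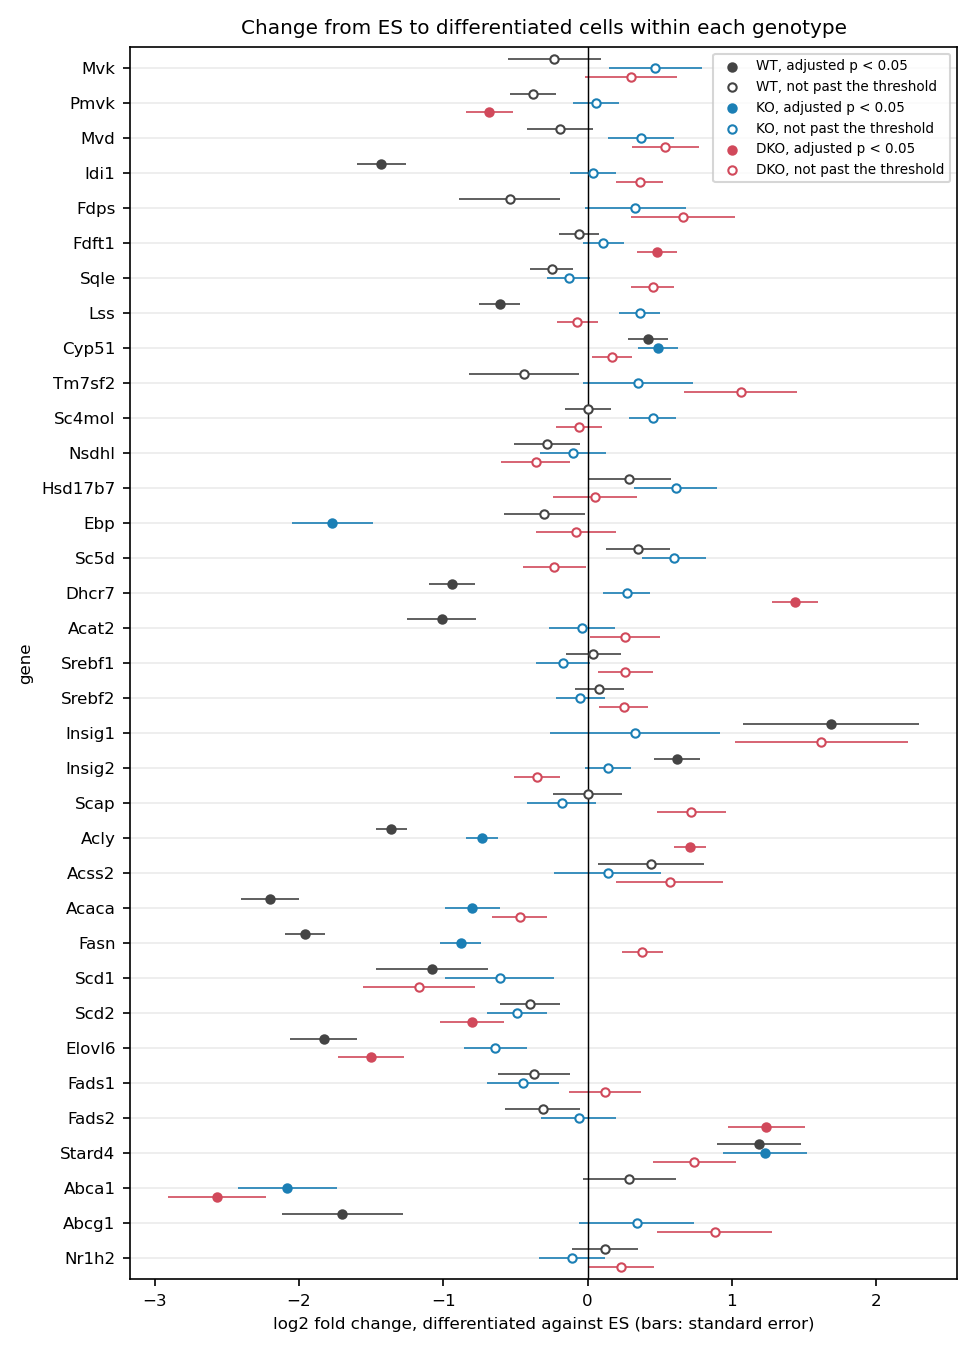
Log2 fold change from ES to differentiated cells (horizontal axis; bars, standard error) of the 35 tested genes within WT (grey), KO (blue) and DKO (red); filled points passed an adjusted p of 0.05. Acaca, Fasn, Elovl6 and Acly lie far to the left in WT, and Dhcr7, Acly and Fads2 lie to the right in DKO.

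Averaged over the 3 genotypes, 4 genes fell and 2 rose with differentiation (17.1% called), where 35.8% of all genes were called, 15.7% as lower and 20.1% as higher. All 4 falls were of fatty acid enzymes: Elovl6 (−1.22 ± 0.30), Acaca (−1.09 ± 0.33), Scd1 (−0.93 ± 0.25) and Scd2 (−0.55 ± 0.16). Elovl6 and Stard4 were the 2 of these 6 genes called in all 19 alternative settings. Acaca was not called in 6 of them (without either WT ES library, WT day 8, WT day 12 or KO day 12, and with only day 8), with adjusted p up to 0.24, and with only day 8 Scd1 (adjusted p = 0.11) and Scd2 (adjusted p = 0.093) were not called either. Scd2, the highest of the 37 genes in WT ES cells at 345.0 and 348.4 RPKM, was at 267.2 and 254.7 in differentiated WT, 214.0 and 202.8 in KO and 201.6 and 103.3 in DKO, all below the WT ES libraries. Stard4 (1.05 ± 0.18, adjusted p = 0.0028) and Insig1 (1.25 ± 0.41, adjusted p = 0.038) rose, the latter with the WT day 12 library described above. No sterol enzyme was called in this average.

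The change with differentiation was then compared between genotypes by the interaction itself. Between DKO and WT, 11 genes differed, 9 with a more positive change in DKO and 2 with a more negative one (31.4% called), where 42% of all genes differed, 21.1% and 20.8% in these directions. Dhcr7 fell in WT and rose in DKO, a difference of 2.38 ± 0.23 (adjusted p = 2.4e-04), and Acly likewise differed by 2.07 ± 0.16 (adjusted p = 1.3e-04). Fasn fell in WT and was not called within DKO (0.38), and its change differed by 2.34 ± 0.20 (adjusted p = 1.8e-04). Abca1 had the opposite sign, −2.86 ± 0.46, but passed the filter through the DKO ES libraries, where it was high. The same DKO ES libraries in which Dhcr7, Acly and Fasn were low enter both this difference and the comparison of ES cells, so these results are not independent. Between KO and WT, 10 genes differed, 8 more positive and 2 more negative (28.6% called), where 16.3% of all genes differed, 9.07% and 7.24% in these directions. That count was 1 without any single ES library of WT or KO; Idi1, which fell in WT and had a change of 0.04 in KO (a difference of 1.47 ± 0.23, adjusted p = 0.0073), was the gene called in all 17 alternative settings.

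**Figure D4:**
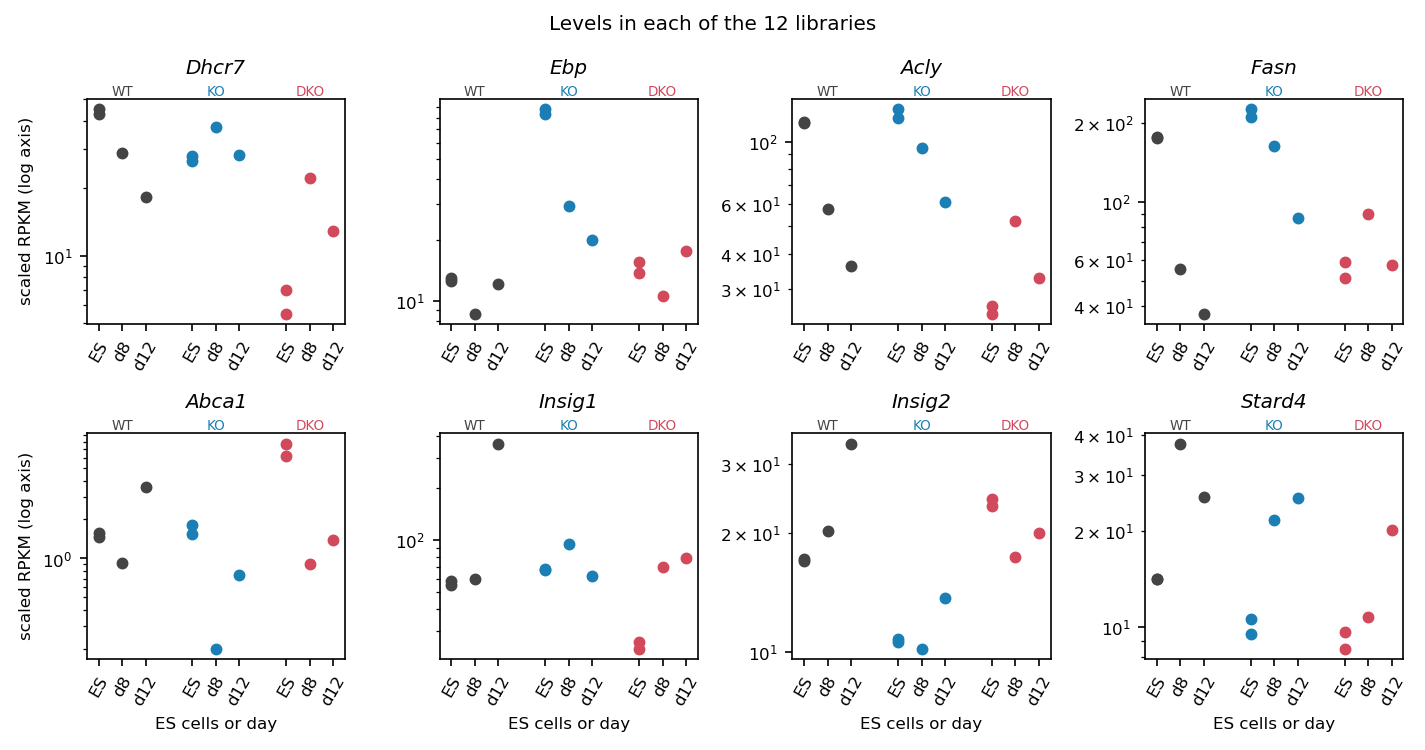
RPKM (vertical log axes, a range for each gene) of 8 genes in each library of WT (grey), KO (blue) and DKO (red), in ES cells and at day 8 (d8) and day 12 (d12); each point is 1 library. Dhcr7, Acly and Fasn are lower at both days than in ES cells in WT, while in DKO their day 8 point is the highest; Abca1 is highest in DKO ES cells, and Insig1 in WT day 12.

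Among differentiated cells none of 34 genes was called between KO and WT or between DKO and WT by edgeR's quasi-likelihood test, which had 1 library per genotype and day. Over all 12896 genes tested, 0% were called for KO and 2.18% for DKO, 1.52% as higher and 0.659% as lower. At an unadjusted p under 0.05, 9 genes passed for KO, 8 higher and 1 lower, and 7 for DKO (26.5% and 20.6%, against 23.3% and 30.8% of all genes). DESeq2 called 5 and 4 of these genes, and 1836 and 3139 of all genes. The median log2 fold changes were 0.29 in KO and −0.31 in DKO, against −0.01 and 0.02 over all genes. Of the 17 sterol enzymes, none of them called, 14 had a positive value in KO and 16 a negative one in DKO, where 6384 of all 12896 genes were positive in KO and 6327 negative in DKO. Fasn was at 163.8 and 86.8 RPKM in KO and 89.7 and 57.4 in DKO, against 55.3 and 37.3 in WT (1.41 ± 0.23 and 0.70 ± 0.22, adjusted p = 0.088 and 0.12), and Elovl6 at 48.3 and 32.8 and 43 and 18.1, against 20.8 and 7.34 (1.71 and 1.20, adjusted p = 0.093 and 0.079). Both genes were higher in each mutant than in WT on the same day, and so were the ES marker sums. Between the mutants, KO had more of both genes on each day and DKO the higher ES marker sum. The part of the ES marker differences in these values was not tested. Nsdhl, at 3.74 and 3.33 RPKM in DKO against 11.9 and 6.08 in WT (−1.24 ± 0.32, adjusted p = 0.091), lay below WT as it did in ES cells. The regulators Srebf2 (110.6 and 100.7 RPKM in WT, 119.1 and 91.6 in KO, 125.1 and 69.7 in DKO), Srebf1 (39.7 and 54.3, 44.1 and 40.4, 30.8 and 27.5) and Scap (14.2 and 15.5, 14.1 and 13.6, 14.3 and 25) were not called in any comparison with differentiated cells.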

How the data were processed

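Polyadenylated RNA of 12 libraries was sequenced on an Illumina platform, per the labels' protocols, and aligned with Bowtie2 to mm9, per the submitters' processing notes; the counting program and its rules for strand and multiply mapped reads were not given in the sources used here. Tables, as deposited, hold read counts and RPKM for 29257 transcript models; the authors' RPKM divide by a library total larger than the reads in genes, so it served only for the filter. Levels printed were recomputed from the deposited counts with TMM scaling over the 12 libraries. Counts of the longest model per symbol were tested with edgeR 4.0.16 (quasi-likelihood, R 4.3.3) for genes that reached 1 RPKM in 2 or more libraries of a fit, over the 6 ES libraries, the 6 differentiated libraries (with day) or all 12 (each genotype's mean in each state, and day; genotype alone for the average). Alternatives were RLE scaling, no filter, DESeq2 1.42.0, limma 3.58.1 on log2(RPKM + 1) of the deposited RPKM, the model with most reads, only the libraries compared, single days, leaving out each library in turn and a block for replicate number. The script was tested on simulated data. Members and lists were chosen with earlier results of these data known. Values in every library are given for genes called with a log2 fold change of at least 1 in size (at most 10 per comparison) and for the 5 regulators; other pathway genes are named by smallest adjusted p, at most 4 per list and comparison, and some of these are not reported here. No comparison was made between DKO and KO differentiated cells or between days.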

Additional observations from a re-analysis of the deposited data

Results flagged for a closer look

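The test of the difference between genotypes in the change from ES to differentiated cells passed for 21 results. Each is given here as the mutant change minus the WT change on the log2 scale. The adjusted p is from edgeR's quasi-likelihood test and is left out for Abca1 in DKO. WT ES and differentiated libraries are shared by both sets of values. For KO minus WT, Idi1 (1.47, adjusted p = 0.0073), Dhcr7 (1.21, adjusted p = 0.012) and Lss (0.97, adjusted p = 0.017) of the sterol pathway had a more positive change in KO. So did Acaca (1.40, adjusted p = 0.014), Elovl6 (1.19, adjusted p = 0.04), Fasn (1.08, adjusted p = 0.011) and Acly (0.63, adjusted p = 0.033) among the fatty acid enzymes, and Abcg1 (2.04, adjusted p = 0.045). Abca1 (−2.37, adjusted p = 0.015) and Ebp (−1.47, adjusted p = 0.039) had a more negative change in KO.

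For DKO minus WT, the more positive changes in DKO were those of Abcg1 (2.59, adjusted p = 0.0087), Dhcr7 (2.38, adjusted p = 2.4e-04), Fasn (2.34, adjusted p = 1.8e-04), Acly (2.07, adjusted p = 1.3e-04), Idi1 (1.79, adjusted p = 8.2e-04), Acaca (1.74, adjusted p = 0.0019), Fads2 (1.55, adjusted p = 0.012), Acat2 (1.27, adjusted p = 0.017) and Sqle (0.70, adjusted p = 0.032). Abca1 (−2.86) and Insig2 (−0.97, adjusted p = 0.0097) had a more negative change. Abca1 passed the filter through the DKO ES libraries, where it was high, so no test of it is given. Sqle was not called in 8 of the 12 fits without 1 library (adjusted p up to 0.12).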

How the results depend on the processing

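The direction and call of a gene changed together in 1 case, Insig1 within WT, whose change was −0.02 without the WT day 12 library and 2.83 without WT day 8. In DKO against WT ES cells 29 to 32 genes were called in the settings that left out no single library. Of the 29 genes, 22 kept their call in every setting that tested them. For DKO against KO these were 25 to 28, and 22 of 28. Abca1, counted in both, was tested in only 11 of the 13 settings, since it failed the filter without either DKO ES library. KO against WT ES cells gave 7 to 19 with 1 library left out: 9 and 7 without WT replicates 1 and 2, and 10 without either KO replicate. Within KO the range was 4 to 14, with 4 without either KO ES library, 14 without WT day 8 and 12 without WT day 12. Within DKO it was 4 to 16, with 5 and 4 without DKO ES replicates 1 and 2 and 16 without WT day 8 or WT day 12. The KO minus WT difference gave 1 to 13 genes, with 1 without any one ES library of WT or KO. The DKO minus WT difference gave 9 to 17, with 17 without WT day 12. Among differentiated cells DESeq2 called 5 genes for KO and 4 for DKO, and 0 to 1 were called for DKO with 1 library left out. The causes of these changes were not tested. ES libraries share only replicate numbers: deviations of same-numbered libraries correlated at −0.03, −0.06 and −0.06, and a fit with the replicate number as a block called 15 genes in KO, 29 in DKO and 25 in DKO against KO. In differentiated cells, 1 library per genotype and day limits each comparison.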
